A study of Mus musculus with 8 samples.

Results

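The genes described here encode 10 enzymes with which a cell makes its own serine, folate-bound one-carbon units, proline and asparagine: Phgdh, Psat1, Psph, Shmt1, Shmt2, Mthfd2, Mthfd1l, Aldh18a1, Pycr1 and Asns. They were chosen by name and matched to the gene symbols of the deposited annotation, and all 10 were found among the 20719 genes tested. Phgdh had 2 probe sets and the other members 1 each; where there are several, a gene is represented by its brightest one, by the mean of all 8 arrays. The RNA came from ATCL7, an immortalized male mouse adrenocortical tumour cell line, and was hybridized to Affymetrix Mouse Gene ST 1.1 arrays, 1 array for each sample of 250000 cells. In 4 samples the cells were treated for 24 h with 0.5 µM BIO (6-bromoindirubin-3'-oxime), an indirubin used to inhibit glycogen synthase kinase 3, and in 4 they received the vehicle, 0.01% DMSO, for the same time. Both groups were kept in medium with 0.025% each of fetal bovine and horse serum, insulin, transferrin and selenium. The titles put the samples in 4 numbered pairs of 1 BIO and 1 vehicle sample. Nothing in the labels tells whether each pair was its own culture. The p-values therefore describe the spread of these arrays, some of which may be technical, in 1 cell line at 1 dose and 1 time.

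Serine is made from the glycolytic intermediate 3-phosphoglycerate in the order Phgdh, Psat1, Psph. Serine hydroxymethyltransferases, Shmt1 in the cytosol and Shmt2 in mitochondria, turn serine into glycine and hand a carbon to folate. In mitochondria, Mthfd2 oxidizes that folate-bound carbon and Mthfd1l releases it as formate, which the cytosol uses for purine and thymidine synthesis. Aldh18a1 and Pycr1 make proline from glutamate, and Asns makes asparagine from aspartate with glutamine as the nitrogen donor. Many genes of these routes are known targets of ATF4, a transcription factor whose translation increases when amino acids are short or the endoplasmic reticulum is stressed. With partners of the C/EBP family ATF4 binds a composite element in several of their promoters.

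The promoter windows in RefSeq (build GRCm38.p6), from 250 bases before to 50 bases after each gene's start, were searched on both strands for a core of that composite element, TGATGNAA, and for the E-box CACGTG, which MYC-family factors bind. No window of a member held both motifs, so no matches overlapped. All 10 members matched, with 11 windows. TGATGNAA was found in 2 of the 11 windows, those of Pycr1 and Asns, against 3.97% of all 32851 windows of this length, and CACGTG in 1, that of Aldh18a1, against 7.15% of all. The windows of Pycr1, Asns and Aldh18a1 are shown because they hold the matches, in capitals, and that of Shmt1, all in lower case, because it was the member whose expression did not pass the test. Each reads 5′ to 3′ along the gene.
Pycr1: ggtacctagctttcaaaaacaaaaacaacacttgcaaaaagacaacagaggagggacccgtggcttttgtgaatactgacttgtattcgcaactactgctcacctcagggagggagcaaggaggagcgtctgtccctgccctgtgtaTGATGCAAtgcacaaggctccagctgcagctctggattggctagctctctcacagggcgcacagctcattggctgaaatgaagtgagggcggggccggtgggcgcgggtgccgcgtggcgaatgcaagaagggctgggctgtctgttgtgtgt
Asns: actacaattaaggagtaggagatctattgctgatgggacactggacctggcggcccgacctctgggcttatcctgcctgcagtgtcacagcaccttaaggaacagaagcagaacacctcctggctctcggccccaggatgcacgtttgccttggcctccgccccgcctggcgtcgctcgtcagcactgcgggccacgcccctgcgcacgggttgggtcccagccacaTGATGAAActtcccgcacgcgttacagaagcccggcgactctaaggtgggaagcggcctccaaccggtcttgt
Aldh18a1: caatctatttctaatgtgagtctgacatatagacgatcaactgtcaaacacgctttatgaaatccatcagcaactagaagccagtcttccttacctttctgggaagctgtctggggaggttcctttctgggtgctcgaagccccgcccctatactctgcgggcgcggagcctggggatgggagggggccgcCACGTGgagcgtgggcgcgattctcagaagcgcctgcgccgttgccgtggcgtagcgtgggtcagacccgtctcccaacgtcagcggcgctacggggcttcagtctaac
Shmt1: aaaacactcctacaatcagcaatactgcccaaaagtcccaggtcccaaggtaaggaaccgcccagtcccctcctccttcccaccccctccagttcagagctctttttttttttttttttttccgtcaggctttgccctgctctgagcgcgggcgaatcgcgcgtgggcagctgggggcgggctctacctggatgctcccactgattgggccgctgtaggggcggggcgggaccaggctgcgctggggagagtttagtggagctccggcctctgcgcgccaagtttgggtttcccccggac
All 4 genes lie on the minus strand, the Pycr1 window at chr11:120643699-120643998, that of Asns at chr6:7693160-7693459, that of Aldh18a1 at chr19:40588414-40588713 and that of Shmt1 at chr11:60811216-60811515. The Pycr1 match, TGATGCAA, begins at position −103 from the start, the Asns match, TGATGAAA, at −23, and the Aldh18a1 match at −59. A match describes the letters only, and binding was not measured.

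BIO raised 9 of the 10 genes, and Shmt1 was the exception. The rises ran from 1.2-fold for Mthfd1l to 2.92-fold for Pycr1, and 7 of the 10 were at least 1.5-fold higher in BIO. The values are log2 expression values of bulk RNA, in which fewer cells of a type and less RNA per cell cannot be told apart. For each gene, limma compared BIO with vehicle with the pair as a block, and p-values were adjusted by Benjamini-Hochberg over all 20719 genes with a threshold of 0.05. In that test 17.0% of all genes were higher in BIO and 15.6% lower (32.7% in either direction), and among the 5180 brightest genes, which are closer to the members in signal, 23.7% were higher. The median log2 change was 0.70 over the 10 members and −0.01 over all genes tested. Because the members were chosen with earlier results of these data known, these shares are a description and the list was not tested. For the same 9 members every BIO array lay above every vehicle array, as it did for 14.1% of all genes and 21.9% of the 5180 brightest; the reverse held for 0 members and 12.9% of all genes. At least 1.5-fold higher with a call were 2.19% of all genes.

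**Figure D1:**
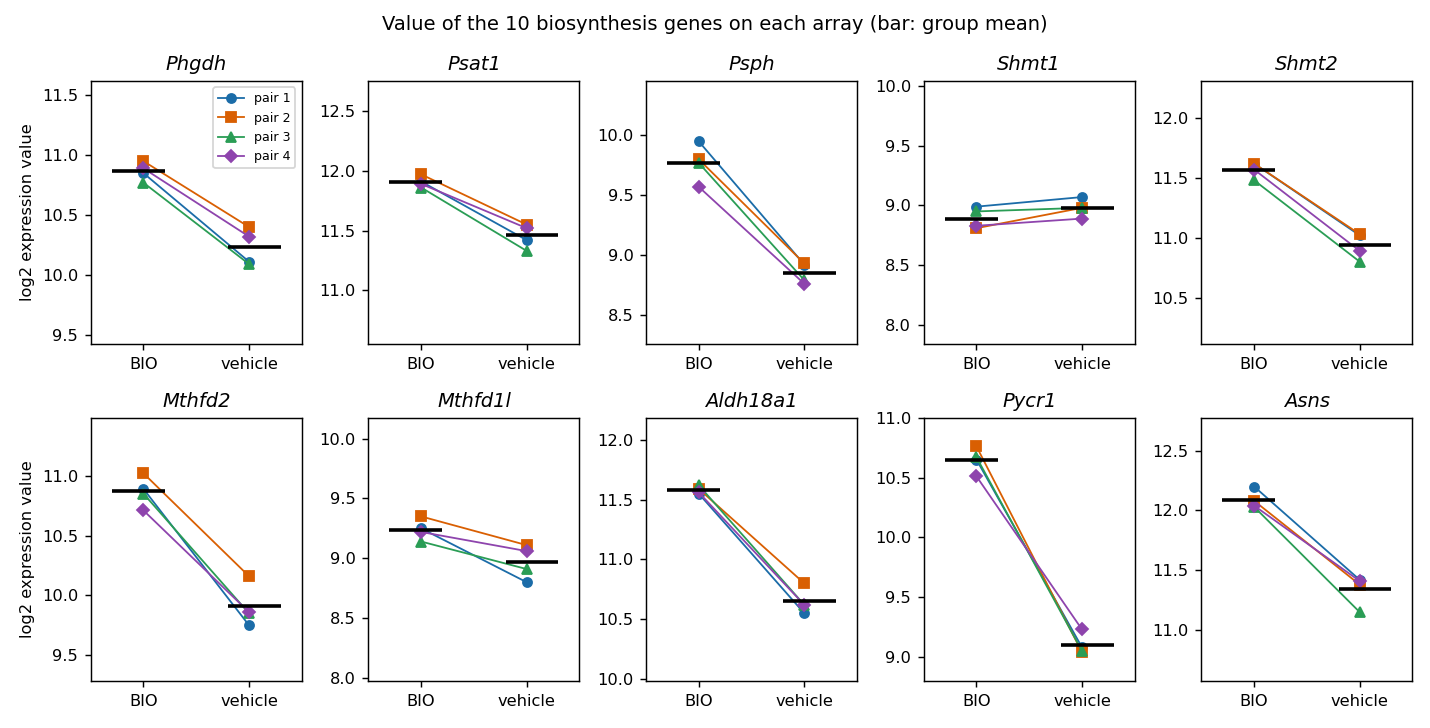
Log2 expression value (vertical axis, each panel spanning an equal range) of the 10 members on the 4 BIO arrays (left) and the 4 vehicle arrays (right). Points of a pair share a colour and a line, and black bars are group means. In 9 panels all BIO points lie above all vehicle points, and in that of Shmt1 they overlap.

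The serine synthesis genes all rose, and the last enzyme of the route most. Psph, the phosphatase that releases serine, was at 9.95, 9.80, 9.77 and 9.57 log2 in BIO pairs 1 to 4, against 8.92, 8.93, 8.79 and 8.76 in vehicle. The lowest BIO array of Psph was thus far above the highest vehicle array. The change was 0.92 ± 0.05 log2 (SE), 1.9-fold, with a limma adjusted p of 8.95e-06. Phgdh, the dehydrogenase that commits 3-phosphoglycerate to serine, was at 10.85, 10.95, 10.77 and 10.89 in BIO, against 10.11, 10.40, 10.09 and 10.32 in vehicle. All 4 BIO arrays were higher than all 4 vehicle arrays, by 0.63 ± 0.05 log2 (SE), 1.55-fold (limma adjusted p = 4.48e-05). The second, dimmer probe set of Phgdh was higher as well, at 9.02 ± 0.09 in BIO and 8.49 ± 0.17 in vehicle (SD, n = 4 arrays each), a change of 0.53 ± 0.09 log2 (SE; limma adjusted p = 0.00244 over all named probe sets). Psat1, the aminotransferase between them, was at 11.91, 11.97, 11.86 and 11.89 in BIO, against 11.42, 11.55, 11.33 and 11.52 in vehicle. Its rise was the lowest of the serine synthesis genes, 0.45 ± 0.05 log2 (SE), 1.37-fold, with a limma adjusted p of 0.000181.

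Among the one-carbon enzymes, the mitochondrial ones rose and the cytosolic one did not pass. Mthfd2, the mitochondrial dehydrogenase and cyclohydrolase, was at 10.89, 11.02, 10.85 and 10.71 log2 in BIO, against 9.75, 10.16, 9.85 and 9.86 in vehicle. The groups of Mthfd2 did not overlap, and the change was 0.96 ± 0.06 log2 (SE), 1.95-fold (limma adjusted p = 1.4e-05). Shmt2, the mitochondrial hydroxymethyltransferase, was at 11.62, 11.62, 11.48 and 11.57 in BIO, against 11.02, 11.03, 10.80 and 10.89 in vehicle. This was a 1.56-fold rise, 0.64 ± 0.04 log2 (SE; limma adjusted p = 2.76e-05), of nearly equal size in every pair. Mthfd1l, the mitochondrial formyltetrahydrofolate synthetase that yields formate, was at 9.25, 9.35, 9.14 and 9.22 in BIO, against 8.80, 9.11, 8.91 and 9.06 in vehicle. Its lowest BIO array and highest vehicle array were 9.14 and 9.11, so the groups were barely separate. The change of Mthfd1l was 0.27 ± 0.06 log2 (SE; limma adjusted p = 0.00724), and its call did not hold in the authors' paired test (adjusted p 0.0872, against 0.00167 to 0.0872 over 11 alternatives). Shmt1 was at 8.99, 8.81, 8.95 and 8.83 in BIO, against 9.07, 8.98, 8.98 and 8.89 in vehicle. The arrays of Shmt1 overlapped between the groups, although BIO was the lower in 4 of 4 pairs. Its difference was −0.09 log2 with a 95% interval of −0.19 to 0.02 (limma adjusted p = 0.198), which leaves out the size of the rises of Shmt2 and Mthfd2.

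Whether Shmt2 and Shmt1 changed by unequal amounts was examined within the pairs. The change of Shmt2 exceeded that of Shmt1 by 0.68, 0.75, 0.71 and 0.75 log2 in pairs 1 to 4, a mean of 0.73 ± 0.03 (SD, n = 4 pairs). The change of Mthfd2 exceeded that of Mthfd1, the cytosolic enzyme that combines its activities with that of Mthfd1l, by 0.95, 0.86, 0.98 and 0.81 log2, a mean of 0.90 ± 0.08 (SD, n = 4 pairs). Both differences had the same sign in 4 of 4 pairs, and in an exact two-sided sign-flip test 2 of the 16 sign patterns were as extreme, for each. That is the smallest share that 4 pairs allow, so this test could not pass 0.05.

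The largest rise of the 10 was that of a proline gene, Pycr1. Pycr1, the mitochondrial reductase that completes proline synthesis, was at 10.65, 10.76, 10.67 and 10.51 log2 in BIO, against 9.08, 9.04, 9.05 and 9.23 in vehicle. More than 1 log2 unit separated the lowest BIO array from the highest vehicle array. The change was 1.55 ± 0.07 log2 (SE), 2.92-fold (limma adjusted p = 3.74e-06), and Pycr1 ranked 28 by rise among all genes tested. Aldh18a1, the synthase that turns glutamate into the proline precursor, was at 11.55, 11.59, 11.62 and 11.56 in BIO, against 10.55, 10.80, 10.62 and 10.62 in vehicle. The BIO arrays of Aldh18a1 were close to each other and all above the vehicle arrays, and the rise was 0.93 ± 0.05 log2 (SE), 1.91-fold (limma adjusted p = 8.36e-06).

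Asns, the only asparagine synthetase, was at 12.20, 12.08, 12.03 and 12.04 log2 in BIO, against 11.42, 11.38, 11.15 and 11.41 in vehicle. The vehicle array of pair 3 stood below the other 3, and every BIO array was higher than every vehicle array. The rise was 0.75 ± 0.05 log2 (SE), 1.68-fold (limma adjusted p = 2.8e-05).

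**Figure D2:**
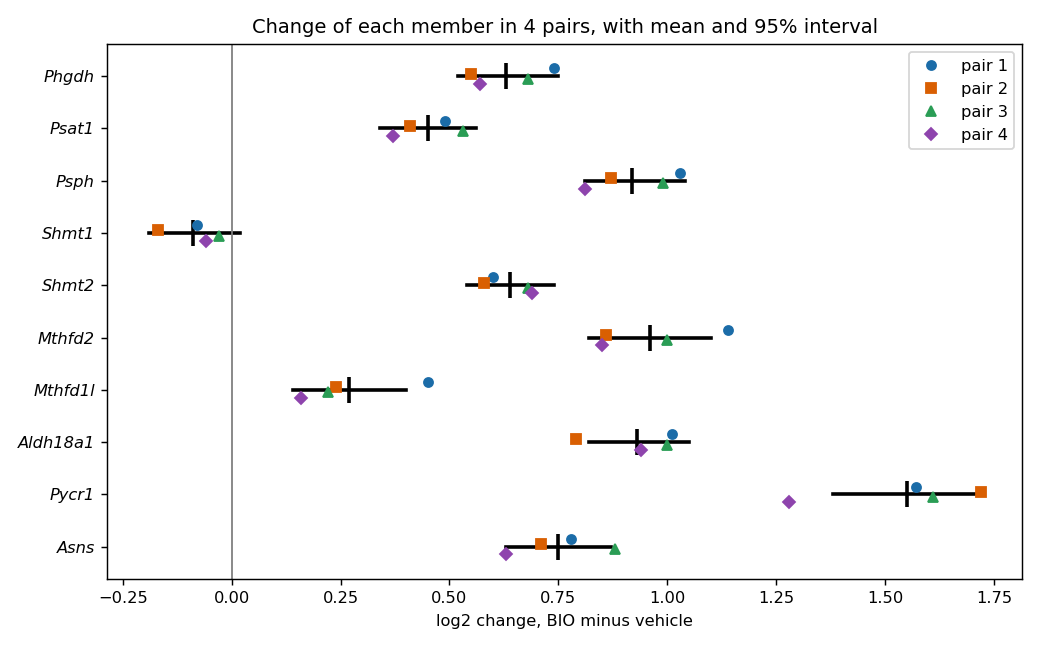
Log2 change of each member, BIO minus vehicle (horizontal axis), in each of the 4 pairs (coloured symbols), with the limma mean (tick) and its 95% interval (bar). The intervals of 9 members lie above 0, and that of Shmt1 runs from −0.19 to 0.02.

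The pairs differed little in the response. The median change of the 10 members was 0.76, 0.65, 0.78 and 0.66 log2 in pairs 1 to 4, and 9 of the 10 were higher in BIO in each pair. Pair 4 gave the lowest change for 6 members and pair 2 for the other 4, while pair 1 gave the highest for 5; members on 1 array share that array, so these counts are not independent. Pycr1 varied most in absolute terms, with changes of 1.57, 1.72, 1.61 and 1.28. Of the genes that rose, Mthfd1l varied most relative to its size, with changes of 0.45, 0.24, 0.22 and 0.16. Over all genes, arrays of pairs 1 and 2 deviated together, as did arrays of pairs 3 and 4 (correlations of a BIO with a vehicle array of 0.243 to 0.617 within these sets and −0.504 to −0.214 across them). The mean vehicle value of pairs 1 and 2 minus that of pairs 3 and 4 was between −0.08 log2 (Pycr1) and 0.19 (Shmt2) for the members.

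Other forms of the same enzymes did not all follow. Aldh1l2, the mitochondrial formyltetrahydrofolate dehydrogenase, was at 11.20, 11.27, 11.24 and 11.12 log2 in BIO, against 9.26, 9.44, 9.64 and 9.79 in vehicle, a 3.19-fold rise of 1.67 ± 0.09 log2 (SE; limma adjusted p = 8.31e-06). Its cytosolic counterpart Aldh1l1 was at 7.60, 7.43, 7.93 and 7.90 in BIO, against 8.22, 8.14, 8.64 and 8.54 in vehicle. Aldh1l1 fell by 0.67 ± 0.04 log2 (SE; limma adjusted p = 1.95e-05), with no overlap of the groups. Mthfd1 differed by 0.06 log2 (95% interval −0.05 to 0.18) and Mthfd2l, the other mitochondrial dehydrogenase, by 0.01 (−0.11 to 0.12), and neither passed (limma adjusted p = 0.383 and 0.928). The sign of the Mthfd2l value turned with cyclic loess normalization (−0.04) and without pair 3 or 4. Pycr3, a cytosolic relative of Pycr1, was higher by 0.22 ± 0.06 log2 (SE; limma adjusted p = 0.0237). Its call was lost with cyclic loess (adjusted p 0.0578), by the authors' paired test (0.152) and without pair 3 (0.112) or 4 (0.0952), in a range of 0.00878 to 0.152 over 11 alternatives.

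**Figure D3:**
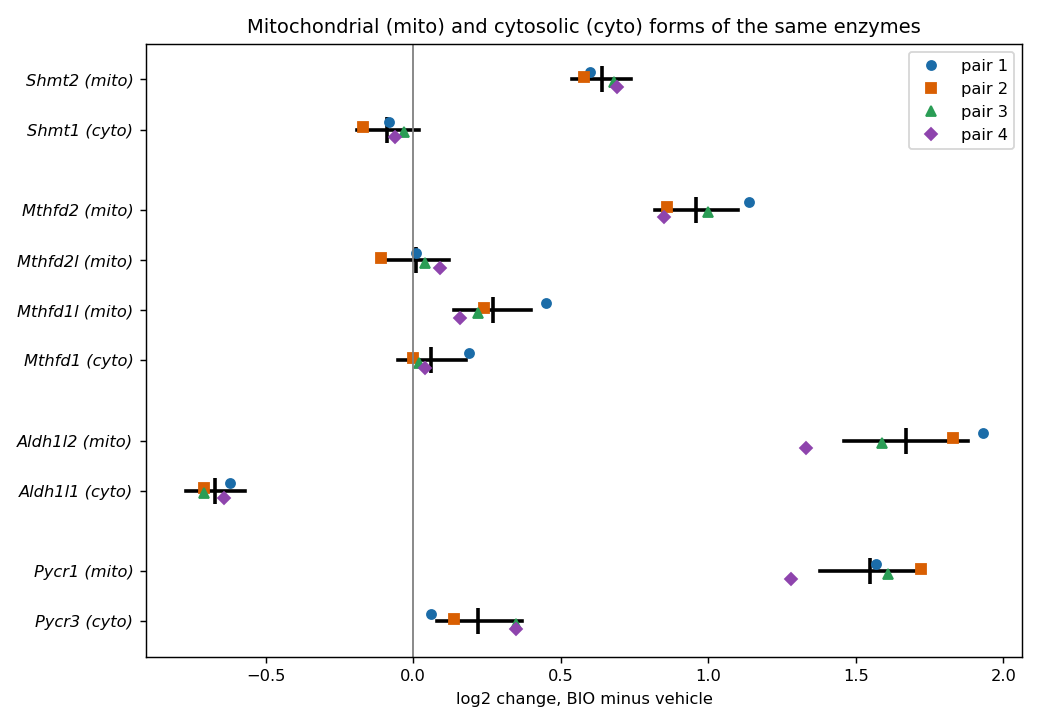
Log2 change, BIO minus vehicle (horizontal axis), of mitochondrial (mito) and cytosolic (cyto) forms of 4 enzyme groups, with the values of the 4 pairs (symbols), the limma mean (tick) and 95% interval (bar). Aldh1l2 and Aldh1l1 lie on opposite sides of 0, at 1.67 and −0.67.

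The wider folate cycle changed in part. Of 22 further genes of that cycle, 11 rose (50%, against 17.0% of all genes), 2 fell (9.09%, against 15.6%) and 9 did not pass, with a median log2 change of 0.17. By the authors' paired test 7 rose, and 1 fell by that test, without the pair block and without pair 2, 3 or 4. After Aldh1l2 and Aldh1l1, the largest change was that of Mtr, the methionine synthase (0.39 ± 0.08, SE). Mtr lost its call by the authors' paired test (adjusted p 0.12, range 0.00193 to 0.12). Slc25a32, the carrier that brings folate into mitochondria, was higher by 0.20 ± 0.06 log2 (SE; limma adjusted p = 0.025), and its call was lost without the pair block (0.103), with cyclic loess (0.0621), by the authors' paired test (0.136) and without pair 1 (0.098) or 3 (0.12), in a range of 0.0123 to 0.136. In the methionine cycle and salvage list, 3 of 14 genes rose (21.4%, near the 17.0% of all genes). In that list 4 fell (28.6%, against 15.6%) and 7 did not pass. The number that fell was 2 without pair 3 and 1 by the authors' paired test. The largest changes there were the fall of Bhmt, a betaine-dependent methyltransferase (−0.58 ± 0.10, SE), the rises of the salvage enzymes Adi1 (0.51 ± 0.09) and Apip (0.44 ± 0.05), and the fall of Mat2b, the regulatory subunit of methionine adenosyltransferase (−0.43 ± 0.06). By the authors' paired test, Bhmt (adjusted p 0.0933, range 0.000705 to 0.0933), Adi1 (0.0893, 0.00156 to 0.0893) and Mat2b (0.0525, 0.000161 to 0.0525) did not pass. The dimmest of the 3 probe sets of Bhmt did not pass either (−0.15 ± 0.06, limma adjusted p = 0.114). Even the brightest, which gave the fall, was dim, at 4.88 log2 in BIO and 5.46 in vehicle.

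Genes that use or move serine changed in both directions. Of 21 genes, 9 rose (42.9%, against 17.0% of all genes), 4 fell (19%, near the 15.6% of all genes) and 8 did not pass. Their median log2 change was 0.11. Without pair 1 or without pair 3 the number that rose was 5, and by the authors' paired test 4. The number that fell was 2 by that test, without the pair block and without pair 2, 3 or 4. Cth, the lyase that yields cysteine in the route from serine and homocysteine, was at 11.04, 11.23, 10.63 and 10.43 log2 in BIO, against 8.95, 8.95, 8.99 and 8.76 in vehicle. This 3.79-fold rise, 1.92 ± 0.10 log2 (SE; limma adjusted p = 7.86e-06), was the greatest in the list. Cbs, the enzyme before it, named after its value was seen, did not pass (−0.04 ± 0.05, limma adjusted p = 0.606), and its sign turned without pair 2 (0.01). Srr, the racemase that makes D-serine, was at 8.92, 8.92, 8.95 and 8.94 in BIO, against 7.88, 7.64, 7.89 and 7.94 in vehicle, a 2.14-fold rise (1.09 ± 0.06 log2, SE; limma adjusted p = 5.77e-06). Amt, a subunit of the glycine cleavage system, rose by 0.59 ± 0.08 log2 (SE), a call that did not hold in the authors' paired test (adjusted p 0.0605, range 0.000139 to 0.0605). Sfxn3, a mitochondrial serine carrier of the sideroflexin family, fell by 0.55 ± 0.04 log2 (SE).

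On the proline and glutamate side, 5 of 17 further genes rose, 5 fell and 7 did not pass. The 2 shares were 29.4% each, against 17.0% higher and 15.6% lower of all genes. The number that rose was 3 without the pair block or without pair 4, and 2 with cyclic loess, without pair 3 or by the authors' paired test, by which 3 fell. Gpt2, the mitochondrial alanine aminotransferase, was at 9.71, 9.80, 9.58 and 9.48 log2 in BIO, against 8.06, 8.09, 8.13 and 8.13 in vehicle, a 2.91-fold rise close in size to that of Pycr1. Nadk2, the mitochondrial NAD kinase, fell by 0.75 ± 0.07 log2 (SE; limma adjusted p = 0.000112), and P4ha2, a collagen prolyl hydroxylase subunit, by 0.74 ± 0.08 (0.000304). Aldh4a1, which breaks proline down to glutamate together with Prodh, rose by 0.44 ± 0.06 log2 (SE; limma adjusted p = 0.000782). Prodh itself did not pass (0.04 ± 0.06, limma adjusted p = 0.614). Of 12 genes around asparagine and aspartate, 3 rose, 1 fell and 8 did not pass. These shares, 25% and 8.33%, are near and below the 17.0% and 15.6% of all genes. The number that fell was 2 with cyclic loess, with dim genes left out and without pair 1 or 3. Asrgl1, an asparaginase, was higher by 0.81 ± 0.07 log2 (SE; limma adjusted p = 5.53e-05), and Nit2, an omega-amidase, by 0.42 ± 0.05 (limma adjusted p = 0.000361). Got1, the cytosolic aspartate aminotransferase, was at 10.87 ± 0.17 in BIO and 10.67 ± 0.06 in vehicle (SD, n = 4 each). Its call (limma adjusted p = 0.0386) was lost without the pair block (0.108), by the authors' paired test (0.192) and without pair 1 (0.133), 2 (0.145) or 3 (0.0905), in a range of 0.0107 to 0.192. Adss, an adenylosuccinate synthase that uses aspartate, fell by 0.20 ± 0.04 log2 (SE; limma adjusted p = 0.00853).

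**Figure D4:**
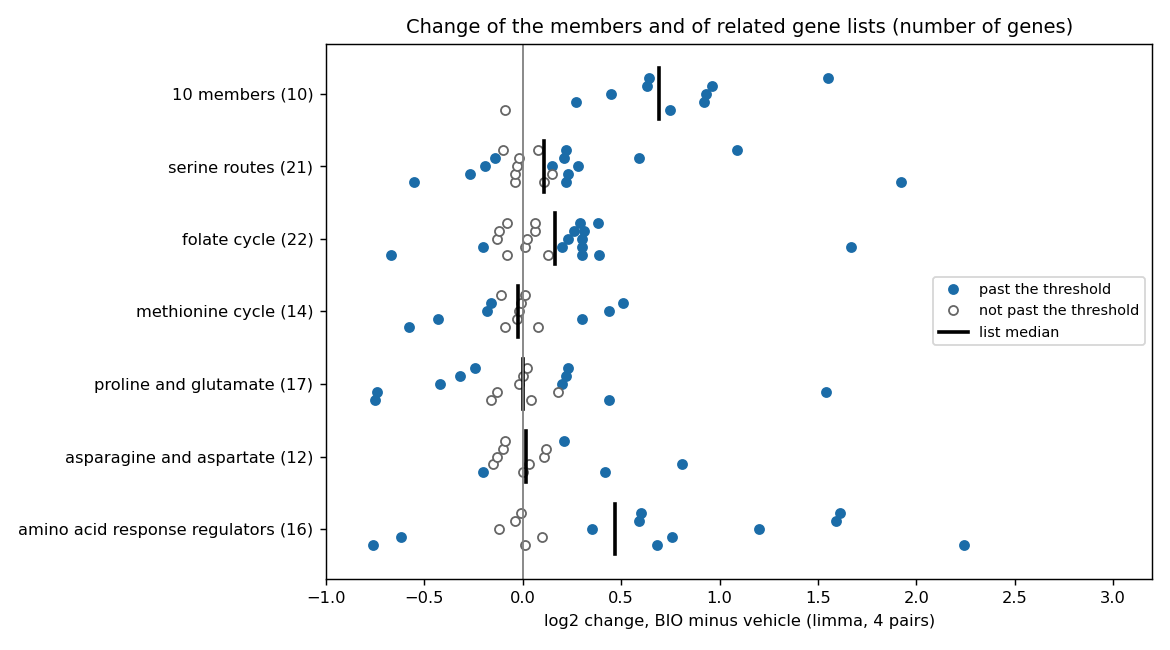
Log2 change, BIO minus vehicle (horizontal axis), of the 10 members and of 6 related gene lists, 1 point per gene. Filled points passed a limma adjusted p of 0.05, open points did not, and black bars are list medians, 0.70 for the members and 0.47 for the regulators.

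Regulators of the amino acid response also rose in part. Of 16 genes, 9 rose (56.2%, against 17.0% of all genes), 2 fell (12.5%, against 15.6%) and 5 did not pass. Their median log2 change was 0.47, and by the authors' paired test 7 rose (43.8%). Atf4 was at 9.02 ± 0.13 log2 in BIO and 8.42 ± 0.03 in vehicle (SD, n = 4 each), with no overlap, a 1.51-fold rise (0.60 ± 0.06 log2, SE; limma adjusted p = 0.000148). Atf5, a related factor, rose by 1.61 ± 0.07 log2 (SE), and Sesn2, a leucine sensor, by 1.20 ± 0.10. The stress-induced factors Trib3 and Ddit3, which were the other largest changes of the list, were 4.74-fold and 3.01-fold higher. Of the kinases that start this response, Eif2ak4, which senses uncharged tRNA, and Eif2ak3, which senses endoplasmic reticulum stress, did not pass, at −0.01 and 0.01 log2; both were named after their values were seen. The sign of the Eif2ak3 value turned with cyclic loess (−0.04) and without pair 1, 2 or 3. The genes that fell were Myc, which is known to raise several serine and one-carbon genes in other cells (−0.76 ± 0.07, SE), and Eif2ak2, the kinase activated by double-stranded RNA (−0.62 ± 0.06), both named after their values were seen. Protein and kinase activity were not measured.

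Genes outside the 10 with the most similar pattern were sought by Pearson's r over the 8 arrays, after each pair's mean was subtracted, to the average of the members scaled to their SD. The search covered 9774 genes above the median mean value, with the members and predicted gene models left out. The 8 closest were Cnih1, Fam199x, Slc7a5, Taco1, Dgat2, Pigh, Htra1 and Zfp418, all with r of at least 0.9994. Because the pair means are removed, such an r reflects little more than the 4 pair changes, and 324 of the 9774 genes reached 0.99. Slc7a5, a transporter of large neutral amino acids, was at 11.75, 11.80, 11.62 and 11.57 log2 in BIO, against 11.03, 11.23, 10.92 and 11.03 in vehicle. Htra1, a secreted serine protease, was higher by 1.54 ± 0.07 log2 (SE), Dgat2, a triglyceride synthesis enzyme, by 0.80 ± 0.05, and the other 5 by 0.19 (Cnih1) to 0.59 (Zfp418). Cnih1 lost its call without pair 3 (adjusted p 0.0561, range 0.000708 to 0.0561). Of the members themselves, r to their average ran from 0.950 (Mthfd1l) to 1.000 (Phgdh) in those that rose and was −0.813 for Shmt1. Each member is part of that average, so a high r was partly built in.

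Beside BIO and vehicle, the authors' deposited table gives fold ratios of another experiment, headed Wnt over SF1 with 3 and 4 samples, which the labels do not describe further. In it 12.9% of the genes had an unadjusted p under 0.05. Psat1 was 2.62-fold higher in Wnt in the authors' deposited table (unadjusted p = 0.00542). The other 9 members had unadjusted p of 0.069 or more in the authors' deposited table, among them Asns with a ratio of 0.594 (p = 0.111) and Mthfd2 with 0.606 (p = 0.069). Pycr1, the member with the largest change by BIO, had a ratio of 1.01 there (p = 0.873 in the authors' deposited table).

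Over all probe sets the median log2 value of an array lay between 5.70 and 5.73, and the members' means over the 8 arrays were between 8.94 and 11.71. The 12 adrenocortical markers had a mean log2 value of 6.92 to 7.17 on BIO arrays and 7.64 to 8.03 on vehicle arrays. Of these markers 10 fell (83.3%, against 15.6% of all genes), and by the authors' paired test 6 fell. They include Mc2r, Star, Cyp11a1 and Cyp11b1, at 6.67, 7.91, 10.93 and 5.41 in BIO and 8.73, 9.80, 11.84 and 6.25 in vehicle. Cyp21a1 and Cyp11b2, named after their values were seen, were at 4.51 and 4.11 in BIO and 4.60 and 4.22 in vehicle, near the low end of the scale, where no detection call is at hand. Lists of 6 macrophage, 6 endothelial and 6 fibroblast markers averaged 4.66 to 4.70, 4.54 to 4.68 and 4.86 to 4.99 on BIO arrays and 4.76 to 4.84, 4.57 to 4.66 and 4.84 to 5.03 on vehicle arrays. In these lists Cd68 (−0.45) and Col1a1 (−0.23) fell and the other genes did not pass. Each was 1 of 6 in its list, 16.7%, near the 15.6% of all genes that fell. With cyclic loess or without pair 3, 1 endothelial marker passed as higher, and 1 fibroblast marker did so without pair 4. The number of fibroblast markers that fell was 2 without pair 1. The call of Col1a1 did not hold in the authors' paired test (adjusted p 0.106, range 0.00787 to 0.106) and without pair 2 (0.0599) or 4 (0.0573). The part of the fall in adrenocortical markers in the members' rise was not tested.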

How the data were processed

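The 8 arrays held total RNA of 4 BIO and 4 vehicle samples, 250 ng each. The authors deposited log2 values made by RMA in oligo, per the submitters' processing notes, from perfect-match probes, per the file headers. As a method, RMA corrects background, quantile-normalizes arrays and gives 1 summary per probe set. For version and genome build, nothing is stated in the sources used here. RMA compresses changes of dim genes. A second table deposited by the authors holds the p-values of their paired t-test, not adjusted, and average fold ratios, with those of another experiment, per the file headers. Array correlations ran from 0.9948 to 0.9986 inside a group and from 0.9880 to 0.9920 across groups, so none duplicated another. The number of arrays limits the precision.

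Symbols came from the deposited annotation, with 1875 updated through the RefSeq gene table of GRCm38.p6 (20480 identifiers matched, 239 not). Values were tested with limma 3.58.1 in R 4.3.3 (lmFit, eBayes; 8.07 moderated degrees of freedom), two-sided, with the pair from the titles as a block, since the authors' test is paired. Deviations from group means of same-numbered arrays correlated at 0.446, 0.578, 0.385 and 0.617. Those of differently numbered arrays ran from −0.504 to 0.392, so the numbers did not set every pair apart. In simulated data, 200 of 20719 genes were raised in 4 pairs. Of those raised by 0.3 log2, 87.3% were recovered, and of those raised by 0.585, 100%. False calls made up 8.07% of the simulated calls, above the threshold of 0.05. In the real data 32.7% of genes passed, in both directions, so the simulated shares may not hold there. Alternatives were the fit without the block, an intensity trend with robust prior, cyclic loess, leaving out dim genes or a pair, averaging probe sets, and the authors' test.

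The members, lists and tests were chosen with earlier results of these data known. Genes named beside the members are the 4 largest changes past the threshold in each list, 8 fixed relatives, and the 8 most similar genes; others are marked. Of the genes so chosen, 2 are not reported here. No array batch (strip or scan) could be taken from the sources used here, and none was tested.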

Additional observations from a re-analysis of the deposited data

Results flagged for a closer look

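In each group of 4 arrays, a value was looked at again when its gap to the nearest other array, divided by the range of the group, exceeded Dixon's 95% critical value for 4 arrays. Of 124 groups examined, 7 did so, and chance gives about 5%. In Asns, the vehicle array of pair 3 (11.15) lay below the others at 11.38 to 11.42 (gap over range 0.846). In Cth, the vehicle array of pair 4 (8.76) lay below the others at 8.95 to 8.99 (0.840). In Aldh4a1, the vehicle array of pair 2 (7.27) lay above the others at 6.91 to 6.96 (0.861). Mthfd2l was high in pair 2 in both groups, at 8.26 against 7.98 to 8.01 on the other BIO arrays (0.889) and at 8.37 against 7.92 to 7.97 on the other vehicle arrays (0.873). In Cnih1, the vehicle array of pair 1 (10.64) lay below the others at 10.72 to 10.73 (0.898). In Cyp11b2, the BIO array of pair 3 (3.96) lay below the others at 4.15 to 4.17 (0.939).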

How the results depend on the processing

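All 9 calls of members as higher in BIO held in limma without the pair block, with an intensity trend and robust prior, with cyclic loess, with the lowest 25% or 50% of genes left out, with probe sets averaged, and without any 1 of the 4 pairs. The exception was Mthfd1l by the authors' paired t-test, which left 8. Shmt1 stayed unpassed and below 0 in all 11 alternatives, at −0.12 to −0.06 log2. The median change of the 10 members ran from 0.67 to 0.72. The difference of Shmt2 and Shmt1 stayed between 0.72 and 0.77 log2, and that of Mthfd2 and Mthfd1 between 0.87 and 0.93.

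Without the replicate block 2694 genes were higher and 2329 lower, and no member's call changed. The authors' paired t-test, adjusted over the same genes, passed 2057 higher and 1890 lower, against 3531 and 3236 by limma; it takes each gene's spread from that gene alone. Cyclic loess moved the split to 3205 higher and 3496 lower. Of 564 alternative values of 52 other genes examined singly, 28 lost the call and 9 turned sign, all 9 in genes not past the threshold. These were Mthfd2l with cyclic loess (−0.04; −0.02 to 0.05 with 1 pair left out), Eif2ak3 with cyclic loess (−0.04; −0.01 to 0.04 with 1 pair left out), Prodh (−0.01 to 0.09 with 1 pair left out) and Cbs (−0.08 to 0.01 with 1 pair left out). The cause of these changes was not tested. No detection call was used, so signal over background is unknown for dim genes. Bhmt, Prodh, Cbs, Cyp11b1, Cyp21a1, Cyp11b2 and Col1a1 have no value with the lowest 50% of genes left out, nor Cyp11b2 with the lowest 25%.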
